A study of Mus musculus with 10 samples.

Results

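The unfolded protein response genes described here are 35 mouse genes of endoplasmic reticulum (ER) stress, found by gene symbol among the 52459 genes of an RNA sequencing table of liver tumors. They were arranged by the sensor that each is best known to follow, with 8 genes in the PERK group, 11 in the IRE1 group and 16 in the ATF6 group. All 35 were in the table, and all 35 passed the filter for testing (5 or more of the 10 libraries with 0.5 FPKM or more), which left 12146 genes. Of the 35, 34 reached 0.5 FPKM in all 10 libraries, and Chac1 did so in 9.

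The tumors were primary hepatocellular carcinomas (HCC) of mice with tetracycline-controlled transgenes. The 5 *MYC*-HCC tumors came from LAP-tTA/TRE-*MYC* mice and the 5 *MYC*/*Twist1*-HCC tumors from LAP-tTA/TRE-*MYC*/TRE-*Twist1*/Luc mice, so that the MYC transgene and the transactivator were shared by both groups, and Twist1 came together with firefly luciferase. The LAP promoter directs the transactivator to liver cells, and the transgenes were switched on in adult mice by taking away doxycycline. The age of each mouse at the time of collection, and whether each tumor came from a different mouse, are not given in the labels, so a p-value here reflects the spread among these samples, which may be technical. The values are FPKM, which are reads scaled to the length of the gene and the depth of the library, as deposited.

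The 5 *MYC*-HCC columns share one heading and are called libraries 1 to 5 in the order of the table, which ties none of them to a particular tumor. The *MYC*/*Twist1*-HCC libraries carry replicate numbers 1 to 5. Depth, estimated from the shortest gene models, was 19.15 to 23.77 M reads per library, at which 1 read on a gene of 1 kb comes to 0.042 to 0.052 FPKM. Twist1 had 0.06, 0, 0.19, 0.29 and 0.11 FPKM under MYC alone and 2.56, 26.1, 77.2, 1.62 and 2.21 FPKM under MYC with Twist1, with no overlap and an adjusted p of 0.0910 in limma. The hepatocyte markers of the label were present in every library, with a summed level of 1959.9 to 10601 FPKM over 12 genes in *MYC*-HCC and 4612 to 12797 FPKM in *MYC*/*Twist1*-HCC. *MYC*-HCC library 4 stood apart from the rest of its group. It got the lowest weight of the 10 libraries (0.184) when limma weighted the libraries by how well they fit their group, and the number of genes that passed the test with higher levels in *MYC*/*Twist1*-HCC went from 3 of 12146 with it to 526 without it. Results that rest on this library are therefore given with and without it.

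The unfolded protein response is the set of pathways by which a cell matches the folding capacity of its ER to the load of secreted and membrane proteins entering it. PERK and IRE1 are kinases that span the ER membrane, and ATF6 is a membrane-bound transcription factor that is released by cleavage in the Golgi. PERK phosphorylates the initiation factor eIF2α, which lowers general translation while favoring that of ATF4. IRE1 cuts the Xbp1 mRNA so that it can be spliced into the form that encodes an active transcription factor, and cleaved ATF6 drives genes of chaperones. Hepatocytes secrete most of the proteins of blood plasma, and their ER carries the sensors and chaperones of all 3 groups.

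Several of these genes share a DNA element that is known to carry the response, the ER stress element (ERSE), to which ATF6 binds together with the CCAAT-binding factor NF-Y. Its letters are CCAAT and, after any 9 bases, CCACG, and it was searched on both strands from 250 bases before to 50 bases after each RefSeq gene start (GRCm38.p6). Promoters were matched for 30 of the 35 genes. The ERSE was in 9 of these 30, namely Dnajc3, Derl3, Hspa5, Hsp90b1, Pdia6, Calr, Canx, Syvn1 and Creld2, and in 0.137% of the 27025 promoters of the same length. A match is a match of letters and does not show binding. The stretches below place the element (capitals) between 10 bases on either side (lower case), each read 5′ to 3′ in the direction in which CCAAT comes first. They are shown because the 9 bases between the parts of the element differ from gene to gene. Of the genes that hold it, Calr, Hsp90b1, Hspa5 and Canx were among the 5 most abundant of the list in *MYC*-HCC. The other holders averaged from 3.63 FPKM (Derl3) to 72.4 FPKM (Pdia6) there. Pdia3, at 292 FPKM the remaining gene of those 5, had no match in its promoter. Whether the element and the level are linked was not tested.
Calr, chr8:84847065-84847103, plus strand: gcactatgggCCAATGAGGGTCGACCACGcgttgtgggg
Canx, chr11:50325790-50325828, minus strand: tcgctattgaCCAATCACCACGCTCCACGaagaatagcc
Creld2, chr15:88819510-88819548, minus strand: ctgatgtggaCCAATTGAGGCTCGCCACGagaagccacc
Derl3, chr10:75893232-75893270, minus strand: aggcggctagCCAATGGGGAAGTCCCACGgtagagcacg
Dnajc3, chr14:118937817-118937855, plus strand: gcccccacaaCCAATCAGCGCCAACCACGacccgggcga
Hsp90b1, first match, chr10:86705523-86705561, plus strand: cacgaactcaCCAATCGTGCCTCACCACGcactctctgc
Hsp90b1, second match, chr10:86705628-86705666, minus strand: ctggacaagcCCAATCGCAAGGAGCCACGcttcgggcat
Pdia6, chr12:17266481-17266519, plus strand: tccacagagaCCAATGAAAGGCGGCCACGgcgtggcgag
Syvn1, chr19:6046522-6046560, plus strand: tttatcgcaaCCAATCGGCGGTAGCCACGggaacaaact

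Hspa5, which encodes the chaperone BiP and is the best known gene of the response, has the full element close to its start, in the 250 bases before it (chr2:34771840-34772089, plus strand, element in capitals).
Hspa5: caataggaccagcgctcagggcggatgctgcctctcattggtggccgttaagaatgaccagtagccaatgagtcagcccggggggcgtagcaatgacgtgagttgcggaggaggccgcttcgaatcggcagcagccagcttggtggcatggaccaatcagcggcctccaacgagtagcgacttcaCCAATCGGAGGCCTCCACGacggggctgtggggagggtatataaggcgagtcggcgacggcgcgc

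Of the other elements searched, the C/EBP-ATF element TTGCATCA, known to bind ATF4 with a C/EBP factor, was in 1 of the 30 (Chac1) and in 1.03% of all promoters. It is printed here because Chac1 is a known ATF4 target. The promoters of Trib3 and Asns, known ATF4 targets as well, were searched and did not hold it.
Chac1, chr2:119351039-119351066, plus strand: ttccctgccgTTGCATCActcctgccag
The related ERSE-II (ATTGG, any 1 base, CCACG) was in Dnajb11 and in 0.0444% of all promoters, and the CRE TGACGTCA was in Ppp1r15a and in 2.03%. The E-box CACGTG, to which MYC with MAX is known to bind, was in 3 of the 30 (Dnajb9, Derl3 and Calr) and in 8.09% of all promoters, and the letters TGACGTGG of the UPRE were in 0 of the 30 and in 0.714%. The CRE and the UPRE share their first letters, and the CCACG of an ERSE can run into an E-box. In the comparison of the tumors below, the median log2 difference was 0.24 over the 9 genes with an ERSE and 0.29 over the 21 matched genes without one.

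The comparison of the groups asks which arm of the response differed between tumors with MYC alone and tumors with MYC and Twist1. Genes with higher levels in *MYC*/*Twist1*-HCC at an unadjusted p under 0.05 were 5 of 11 in the IRE1 group (Dnajb9, Dnajc3, Edem1, Tram2 and Arfgap3), 3 of 8 in the PERK group (Eif2ak3, Trib3 and Ppp1r15a) and 2 of 16 in the ATF6 group (Atf6 and Sel1l). The intervals of the most abundant chaperones of the ATF6 group all held 0. Tram2, Arfgap3 and Eif2ak3 were the 3 of 35 genes (8.57%) at which the lowest *MYC*/*Twist1*-HCC value exceeded the highest *MYC*-HCC value, beside 2.35% of all genes tested. At 0 of the 35 genes did the groups separate the other way, beside 1.67% of all genes tested. With all 10 libraries, limma on log2(FPKM + 0.1) at an adjusted p under 0.05 called 0 of the 35 genes higher and 0 lower, and the calls over all genes tested were 0.0247% higher and 0% lower in *MYC*/*Twist1*-HCC. With library quality weights 8 of the 35 (22.9%) were called higher, beside 8.30% of all genes tested, and 0 lower, beside 12.1%. Without replicate 5 of *MYC*/*Twist1*-HCC 0 were called in either direction, beside 0.0165% higher and 0% lower of all genes tested. With the unadjusted p in place of the adjusted one, 10 of the 35 (28.6%) were higher in *MYC*/*Twist1*-HCC, beside 7.83% of all genes tested, and 0 were lower, beside 8.51%. Without replicate 5 these counts were 7 higher and 0 lower, beside 687 and 656 of the 12146 genes tested. Without both that replicate and *MYC*-HCC library 4 they were 10 and 2 (Creld2 and Hyou1), beside 1329 and 1947.

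Without *MYC*-HCC library 4, limma called 3 of the 35 genes higher (Tram2, Edem1 and Sel1l, 8.57%), beside 4.33% of all genes tested, and 0 lower, beside 4.72%. Since *MYC*/*Twist1*-HCC replicate 5 stood apart for these genes (below), both libraries were left out together, a choice made after seeing the data. Then Tram2 was the 1 gene called higher (2.86%), beside 1.82% of all genes tested, and 0 were called lower, beside 1.72%. Genes without overlap became more frequent throughout the table when library 4 was left out, with 6 of the 35 on the higher side (17.1%, beside 6.04% of all genes tested) and 1 on the lower side (2.86%, beside 9.64%). They were 7 (20%, beside 6.67%) and 2 (5.71%, beside 10.6%) without both. Over all 10 libraries the median log2 difference (*MYC*/*Twist1*-HCC minus *MYC*-HCC) was 0.35 for the PERK group, 0.63 for the IRE1 group and 0.18 for the ATF6 group, beside -0.04 for all genes tested. Without replicate 5 these medians were 0.15, 0.21 and 0.04, beside -0.04, and without library 4 they were 0.49, 0.36 and 0.12, beside -0.06, so that the order of the PERK and IRE1 groups changed.

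**Figure D1:**
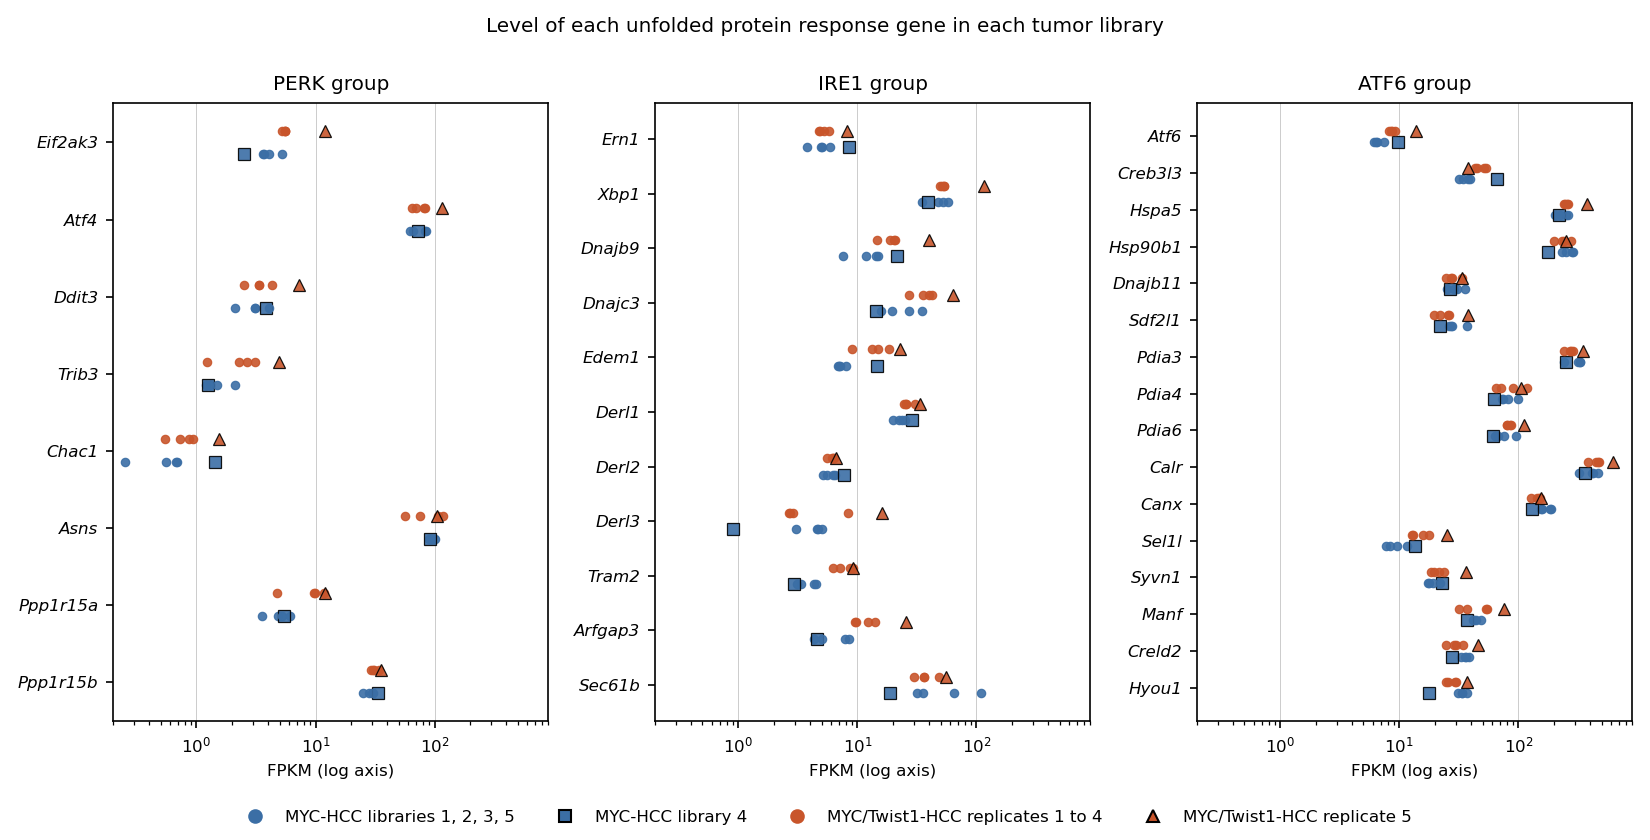
FPKM (log axis) of each of the 35 genes in each of the 10 libraries, by sensor group, with *MYC*-HCC in blue and *MYC*/*Twist1*-HCC in red; the square is *MYC*-HCC library 4 and the triangle *MYC*/*Twist1*-HCC replicate 5. The triangle is the highest of the 10 points for 26 of the 35 genes, while the remaining points of the 2 colors overlap for most genes.

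Eif2ak3, which encodes PERK itself, lies on chromosome 6 (chr6:70844515-70905245, plus strand, GRCm38). It had 3.63, 4.04, 3.67, 2.51 and 5.21 FPKM under MYC alone (libraries 1 to 5) and 5.58, 5.5, 5.22, 5.5 and 11.9 FPKM under MYC with Twist1 (replicates 1 to 5). No library of either group overlapped the other group, replicates 1 to 4 lay within a narrow band just above library 5, and replicate 5 was far above all others. The log2 difference was 0.76 (SE 0.26, adjusted p = 0.221 in limma), and it was 0.54 without replicate 5. Exons of an antisense gene, Gm43292, cover 485 of the 4841 exonic bases of Eif2ak3, and whether reads were counted by strand is not given in the sources used here, so that reads of the pair may not be told apart. Overlaps with exons of other genes on either strand touch 12 of the 35 genes. Taken for each overlapping gene by itself, they cover 0.375% (Ppp1r15a with Tulp2) to 14.7% (Hsp90b1 with 1810014B01Rik) of the exonic bases. Eif2ak3, Tram2 and Arfgap3 are among the genes that the study selected for their difference between these same samples, so their direction here is not independent evidence of it.

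Ppp1r15a and Ppp1r15b encode the subunits that direct the phosphatase PP1 to eIF2α and so undo the action of PERK. The first (GADD34) is the inducible subunit, and the second (CReP) is made at all times. Ppp1r15a measured 3.53, 6.08, 4.83, 5.45 and 5.19 FPKM across *MYC*-HCC libraries and 9.88, 9.8, 4.78, 11.9 and 12.1 FPKM across *MYC*/*Twist1*-HCC libraries. Replicate 3 was among the *MYC*-HCC values, and the other 4 replicates were above all of them. For Ppp1r15a the log2 difference was 0.89 (95% interval 0.32 to 1.45, adjusted p = 0.168 in limma), with an adjusted p of 0.0576 without library 4. Ppp1r15b averaged 29.4 ± 3.13 FPKM (SD, n = 5) over the *MYC*-HCC group and 32.1 ± 2.59 FPKM (SD, n = 5) over the *MYC*/*Twist1*-HCC group, and the interval of its log2 difference was -0.14 to 0.39.

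Atf4 mRNA is translated more when eIF2α is phosphorylated, so its level does not report the amount of ATF4 protein. It had 66.3, 84.2, 83.4, 72.6 and 62.2 FPKM under MYC alone and 64.4, 80.8, 69.8, 83.3 and 115 FPKM under MYC with Twist1, where the values overlapped except for replicate 5. The log2 difference of Atf4 was 0.14 (95% interval -0.24 to 0.53), and 0.02 without replicate 5. Ddit3, the gene of the transcription factor CHOP that is tied to prolonged stress, measured 2.09, 3.13, 3.11, 3.85 and 4.03 FPKM across *MYC*-HCC libraries and 3.34, 3.36, 2.5, 4.29 and 7.26 FPKM across *MYC*/*Twist1*-HCC libraries. The highest Ddit3 level was again that of replicate 5, and its log2 difference of 0.29 (SE 0.28) came to 0.06 without that library.

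The remaining PERK group genes are known targets of ATF4. Trib3, a pseudokinase, had 1.29, 2.09, 1.2, 1.24 and 1.48 FPKM under MYC alone and 1.23, 2.28, 3.13, 2.67 and 4.94 FPKM under MYC with Twist1, with replicate 1 inside the *MYC*-HCC range and replicates 2 to 5 above it. The log2 difference of Trib3 was 0.82 (SE 0.32, adjusted p = 0.257 in limma). Chac1, which breaks down glutathione, was low at 0.25 to 1.43 FPKM in *MYC*-HCC and 0.54 to 1.56 FPKM in *MYC*/*Twist1*-HCC, which comes to an estimated 8 to 54 reads per library. Asns, the asparagine synthetase, was the most abundant gene of the PERK group and averaged 93.7 ± 4.30 FPKM (SD, n = 5) over the *MYC*-HCC group and 92.2 ± 25.6 FPKM (SD, n = 5) over the *MYC*/*Twist1*-HCC group. The *MYC*-HCC values of Asns lay close together, and the *MYC*/*Twist1*-HCC values spread to both sides of them, from 56.0 to 118 FPKM. Its log2 difference was -0.07 with an interval of -0.51 to 0.37, and 0.09 without replicate 2.

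**Figure D2:**
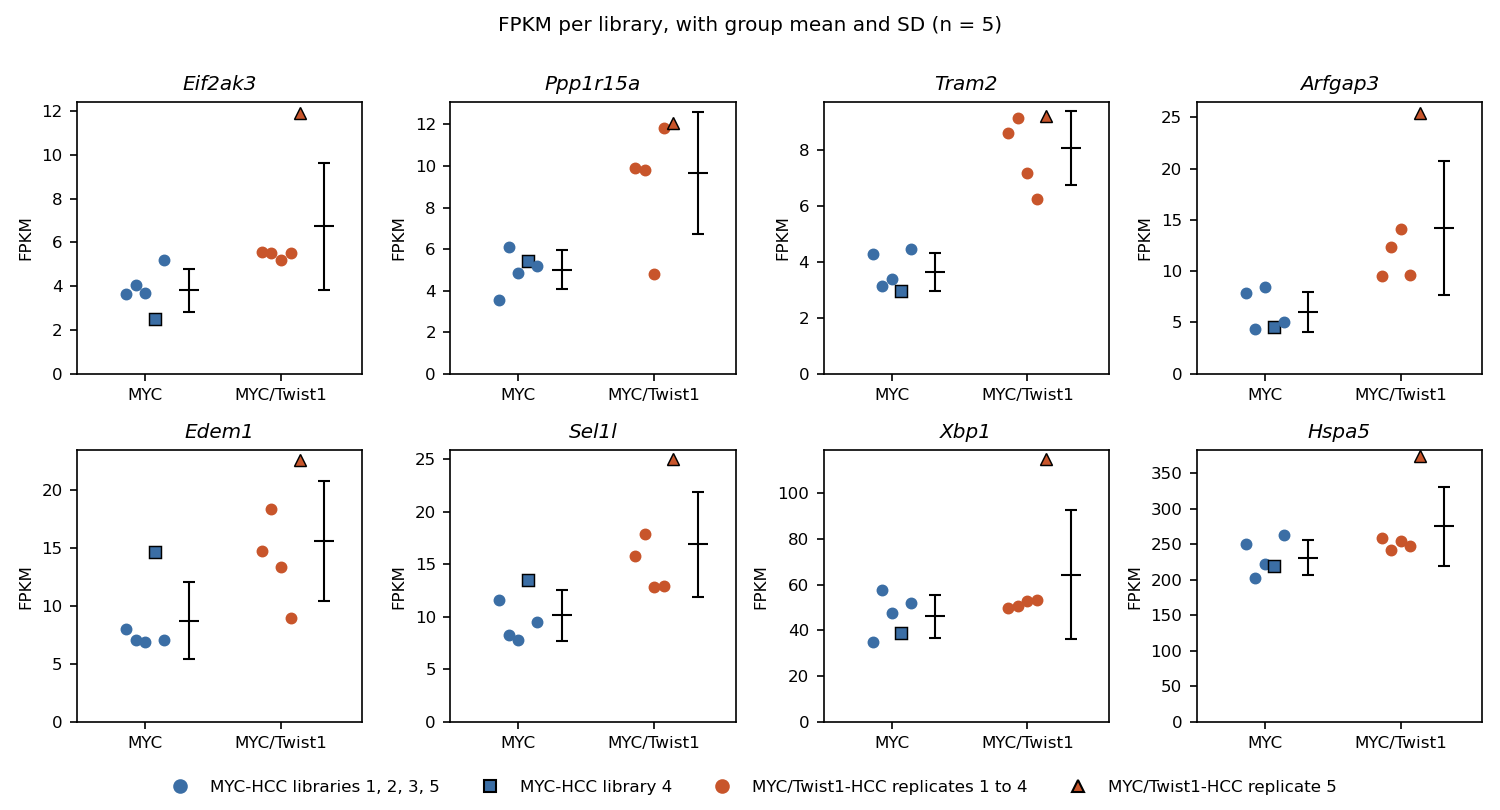
FPKM (linear axes from 0) of 8 genes in each library, with the group mean and SD (n = 5) beside the points; the square is *MYC*-HCC library 4 and the triangle *MYC*/*Twist1*-HCC replicate 5. Tram2, Arfgap3 and Eif2ak3 have no overlap between the groups, while Xbp1 and Hspa5 have replicates 1 to 4 within the *MYC*-HCC range and replicate 5 above it.

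Of the IRE1 group, Tram2 had the smallest p of all 35 genes. It encodes a protein of the ER membrane that is tied to the translocon and lies on chromosome 1 (chr1:20996299-21079229, minus strand). Tram2 measured 4.29, 3.13, 3.39, 2.94 and 4.45 FPKM across *MYC*-HCC libraries and 8.61, 9.12, 7.15, 6.23 and 9.19 FPKM across *MYC*/*Twist1*-HCC libraries. The lowest *MYC*/*Twist1*-HCC value, in replicate 4, was above the highest *MYC*-HCC value, in library 5, and replicate 5 was close to replicates 1 and 2. Between the groups Tram2 had a log2 difference of 1.13 (SE 0.17, 95% interval 0.75 to 1.51), a fold of 2.19, with an adjusted p of 0.0704 in limma over all genes tested. Over the alternatives its adjusted p ranged from 0.00931 to 0.163, and it was 0.0210 without library 4.

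Arfgap3, a GTPase-activating protein for the ARF proteins of the early secretory pathway, lies on chromosome 15 (chr15:83299739-83350247, minus strand). Its FPKM read 7.83, 4.36, 8.47, 4.58 and 5.04 under MYC alone and 9.54, 12.4, 14.1, 9.64 and 25.4 under MYC with Twist1. Again there was no overlap, and replicate 5 stood far above the rest. For Arfgap3 the log2 difference was 1.17 (SE 0.30, 95% interval 0.52 to 1.82), the highest estimate of the 35, with an adjusted p of 0.140 in limma. It was 0.94 without replicate 5 and 1.09 without library 4 (adjusted p = 0.0527).

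The sensor Ern1, which encodes IRE1α, had 5.08, 5.91, 3.74, 8.49 and 4.96 FPKM under MYC alone and 5.73, 4.72, 5.2, 4.87 and 8.18 FPKM under MYC with Twist1. The groups overlapped at Ern1, with library 4 and replicate 5 as the highest of each, and the log2 difference was 0.05 (95% interval -0.46 to 0.55). Xbp1, the RNA that IRE1 cuts, measured 34.8, 57.7, 47.9, 39.0 and 52.2 FPKM across *MYC*-HCC libraries and 49.7, 50.9, 53.1, 53.4 and 115 FPKM across *MYC*/*Twist1*-HCC libraries. Replicates 1 to 4 were within the *MYC*-HCC range of Xbp1, and replicate 5 was at 1.99 times the highest of the other 9 libraries. Its log2 difference was 0.41 (SE 0.25, adjusted p = 0.420 in limma) and 0.18 without replicate 5. A level per gene does not separate the spliced from the unspliced form of Xbp1, so it does not report the activity of IRE1.

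Dnajb9 (ERdj4) and Dnajc3 (p58IPK) are co-chaperones of BiP and known targets of XBP1. Dnajb9 had 11.9, 7.62, 14.4, 21.4 and 14.9 FPKM under MYC alone and 20.3, 20.6, 14.5, 18.9 and 39.7 FPKM under MYC with Twist1. Libraries 4 and 5 reached into the *MYC*/*Twist1*-HCC range, and the log2 difference was 0.68 (SE 0.31, adjusted p = 0.301 in limma). Dnajc3 measured 27.0, 15.9, 19.4, 14.3 and 35.2 FPKM across *MYC*-HCC libraries and 39.6, 27.0, 42.4, 35.5 and 63.8 FPKM across *MYC*/*Twist1*-HCC libraries. Replicate 2 of Dnajc3 was within the *MYC*-HCC range and the other 4 replicates were above it, replicate 4 by little. The log2 difference of Dnajc3 was 0.92 (SE 0.29, adjusted p = 0.186 in limma).

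Edem1 helps to take misfolded glycoproteins out of the folding cycle for degradation. It had 7.99, 7.08, 6.9, 14.7 and 7.04 FPKM under MYC alone and 14.8, 18.4, 13.4, 8.94 and 22.6 FPKM under MYC with Twist1. Library 4 was alone among the *MYC*-HCC libraries in reaching the *MYC*/*Twist1*-HCC range, and without it Edem1 rose, with a log2 difference of 1.03 and an adjusted p of 0.0333 in limma, beside 0.83 and 0.212 with it. The Derlins form part of the channel through which such proteins leave the ER. Derl1 averaged 24.0 ± 3.21 FPKM (SD, n = 5) over the *MYC*-HCC group and 28.0 ± 3.91 FPKM (SD, n = 5) over the *MYC*/*Twist1*-HCC group, with a log2 difference of 0.22 (95% interval -0.09 to 0.53). Derl2 had an interval of -0.30 to 0.30, and its *MYC*/*Twist1*-HCC values (5.54 to 6.56 FPKM) all lay within the *MYC*-HCC range.

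Derl3, the Derlin best known as inducible by ER stress, had the widest interval of the PERK and IRE1 groups. It measured 4.54, 4.68, 5.0, 0.91 and 3.03 FPKM across *MYC*-HCC libraries and 2.87, 2.74, 2.68, 8.32 and 16.2 FPKM across *MYC*/*Twist1*-HCC libraries, so that library 4 was the lowest of the 10, replicates 4 and 5 were the highest and replicates 1 to 3 were below 4 of the 5 *MYC*-HCC libraries. Its log2 difference was 0.63 (95% interval -0.68 to 1.94) with all libraries and -0.21 without library 4 and replicate 5. Sec61b, a small subunit of the translocon, had 64.6, 35.3, 109, 18.8 and 31.6 FPKM under MYC alone and 36.0, 30.0, 48.5, 36.5 and 55.9 FPKM under MYC with Twist1. The *MYC*-HCC values of Sec61b spanned the whole *MYC*/*Twist1*-HCC range, and its interval of -1.0 to 0.82 leaves its direction unknown.

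**Figure D3:**
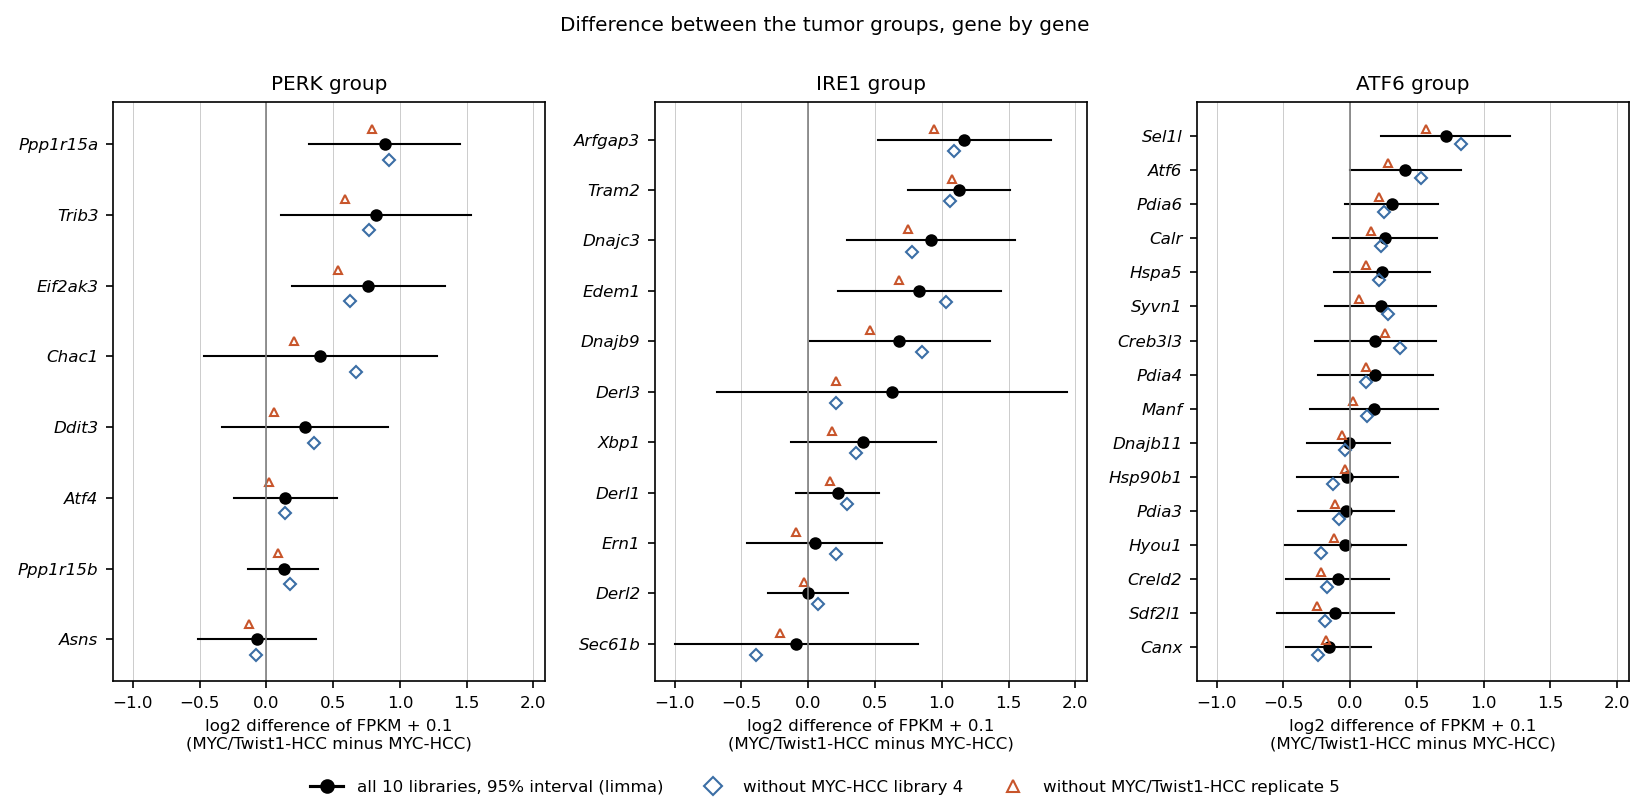
Log2 difference of FPKM + 0.1 (*MYC*/*Twist1*-HCC minus *MYC*-HCC) for each of the 35 genes with its 95% interval from limma (black), and the same difference without *MYC*-HCC library 4 (blue diamonds) or without *MYC*/*Twist1*-HCC replicate 5 (red triangles). The intervals of 10 genes lie above 0 and those of 0 genes below it, and the estimates without replicate 5 lie to the left of the black points for 34 of the 35 genes, Creb3l3 being the exception.

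In the ATF6 group the gene with the smallest p was Sel1l, which encodes the partner of the ubiquitin ligase HRD1 in ER-associated degradation. Sel1l measured 11.6, 8.28, 7.79, 13.5 and 9.48 FPKM across *MYC*-HCC libraries and 15.8, 17.9, 12.8, 13.0 and 24.97 FPKM across *MYC*/*Twist1*-HCC libraries. Library 4 was above replicates 3 and 4, and the other 4 *MYC*-HCC libraries were below all *MYC*/*Twist1*-HCC libraries. The log2 difference of Sel1l was 0.72 (SE 0.22, adjusted p = 0.180 in limma), and without library 4 it rose by 0.83 (adjusted p = 0.0425 in limma). Syvn1, the ligase itself, averaged 19.9 ± 2.55 FPKM (SD, n = 5) over the *MYC*-HCC group and 23.9 ± 7.17 FPKM (SD, n = 5) over the *MYC*/*Twist1*-HCC group, with replicate 5 at 36.2 FPKM and replicates 1 to 4 within or close to the *MYC*-HCC range of 17.5 to 23.0 FPKM.

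The sensor Atf6 had 6.47, 6.36, 6.09, 9.75 and 7.39 FPKM under MYC alone and 8.44, 9.25, 8.22, 8.63 and 13.9 FPKM under MYC with Twist1. The groups overlapped at Atf6 because of library 4, and the log2 difference was 0.41 (SE 0.19, adjusted p = 0.305 in limma). Creb3l3 encodes CREBH, a relative of ATF6 in the ER membrane of hepatocytes. It measured 31.5, 39.1, 37.6, 66.3 and 34.0 FPKM across *MYC*-HCC libraries and 53.4, 51.3, 45.3, 43.0 and 37.5 FPKM across *MYC*/*Twist1*-HCC libraries. Library 4 was the highest of all 10 for Creb3l3 and replicate 5 the lowest of its group, whereas replicate 5 was the highest of its group for Eif2ak3, Ern1 and Atf6. For Creb3l3 the log2 difference was 0.19 (95% interval -0.26 to 0.64), and 0.37 without library 4 (adjusted p = 0.106 in limma).

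Hspa5, whose promoter is printed above, had 249.98, 202, 222, 219 and 263 FPKM under MYC alone and 259, 242, 255, 248 and 373 FPKM under MYC with Twist1. Replicates 1 to 4 of Hspa5 were within the *MYC*-HCC range and replicate 5 was above all. The log2 difference was 0.24 (95% interval -0.12 to 0.60), an interval that holds 0 and a fold of 1.18 as its estimate, and it was 0.12 without replicate 5. Calr (calreticulin), the most abundant gene of the list, averaged 399 ± 54.9 FPKM (SD, n = 5) over the *MYC*-HCC group and 479.9 ± 85.6 FPKM (SD, n = 5) over the *MYC*/*Twist1*-HCC group, and replicate 5 was the highest at 619 FPKM. Its membrane-bound relative Canx (calnexin) measured 189, 155, 157, 129 and 184 FPKM across *MYC*-HCC libraries and 142, 149, 128, 151 and 154 FPKM across *MYC*/*Twist1*-HCC libraries. For Canx all 5 *MYC*/*Twist1*-HCC values were below the *MYC*-HCC median, and the log2 difference was -0.16 (95% interval -0.48 to 0.16, adjusted p = 0.592 in limma).

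The other chaperones that carry the general folding load had intervals that held 0. Hsp90b1 (GRP94) averaged 245 ± 44.1 FPKM (SD, n = 5) over the *MYC*-HCC group and 240.0 ± 29.6 FPKM (SD, n = 5) over the *MYC*/*Twist1*-HCC group, with an interval of -0.40 to 0.36. Hyou1, the large relative of BiP that serves as its nucleotide exchange factor, had an interval of -0.49 to 0.42, and Dnajb11 (ERdj3), a co-chaperone, one of -0.32 to 0.30. The direction of the small estimates of Hsp90b1, Dnajb11, Pdia3 and Hyou1 flipped under quantile normalization, so none is given. Sdf2l1, which binds BiP with Dnajb11, had a log2 difference of -0.11 (95% interval -0.55 to 0.33), and Creld2, a small ER protein known to be secreted, one of -0.09 (95% interval -0.48 to 0.29). Manf, an ER-resident factor that is secreted under stress, had 43.9, 42.0, 48.1, 36.9 and 42.7 FPKM under MYC alone and 37.4, 31.7, 54.6, 53.3 and 75.1 FPKM under MYC with Twist1. Replicates 3 to 5 of Manf were above the *MYC*-HCC range and replicates 1 and 2 were at or below its lower end.

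Of the 3 disulfide isomerases of the list, 0 passed the test in limma with all libraries. Pdia3, which works with calnexin and calreticulin, had an interval of -0.39 to 0.33 and averaged 292 ± 42.0 FPKM (SD, n = 5) over the *MYC*-HCC group and 286 ± 39.2 FPKM (SD, n = 5) over the *MYC*/*Twist1*-HCC group. Pdia4 was at 62.7 to 98.6 FPKM in *MYC*-HCC and 65.1 to 119 FPKM in *MYC*/*Twist1*-HCC, with a log2 difference of 0.19 (95% interval -0.24 to 0.62). Pdia6 measured 75.1, 67.4, 64.1, 60.8 and 94.7 FPKM across *MYC*-HCC libraries and 87.4, 80.9, 84.7, 81.0 and 112 FPKM across *MYC*/*Twist1*-HCC libraries, where replicates 1 to 4 were within the *MYC*-HCC range but above 4 of its 5 libraries. Its log2 difference was 0.31 (95% interval -0.04 to 0.66, adjusted p = 0.351 in limma).

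*MYC*/*Twist1*-HCC replicate 5 was the library in which the response genes were highest. It had the highest level of the 10 libraries for 26 of the 35 genes (74.3%), beside 15.1% of all genes tested. By sensor these were 7 of the 8 PERK group genes, 8 of the 11 IRE1 group genes and 11 of the 16 ATF6 group genes. When each gene was set relative to its mean over the 10 libraries, the median log2 value of replicate 5 was 0.90 for the PERK group, 1.01 for the IRE1 group and 0.48 for the ATF6 group, beside -0.01 for all genes tested. For the 35 genes together it was 0.57, and it lay between -0.24 and 0.03 in each of the other 9 libraries. These are values of 1 library and have no test.

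Of the 35 genes, 9 were in replicate 5 at more than 1.5 times the highest of the other 9 libraries. They took in both ends of the PERK arm, with Eif2ak3 at 2.14 times, Ddit3 at 1.69 times and Trib3 at 1.58 times that level. From the IRE1 group came Xbp1 at 1.99 times, Derl3 at 1.94 times, Dnajb9 at 1.86 times, Arfgap3 at 1.80 times and Dnajc3 at 1.51 times, and from the ATF6 group Syvn1 at 1.54 times. Hsp90b1, Canx and Creb3l3 had ordinary levels in the same library, at 251, 154 and 37.5 FPKM. Twist1 was at 2.21 FPKM in replicate 5, the second lowest level of its group, which ran from 1.62 to 77.2 FPKM.

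**Figure D4:**
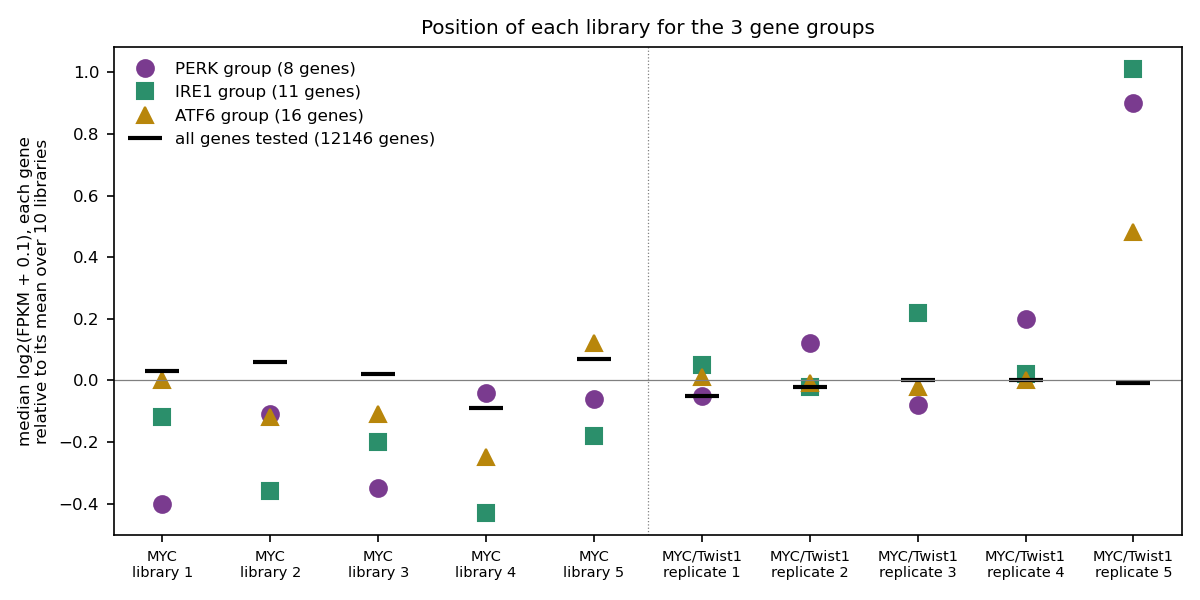
Median log2(FPKM + 0.1) of the PERK, IRE1 and ATF6 group genes in each library, each gene relative to its mean over the 10 libraries, with the median of all 12146 genes tested as a bar. The 3 groups lie at 0.48 to 1.01 in *MYC*/*Twist1*-HCC replicate 5, apart from its bar at -0.01, and at no more than 0.22 in every other library.

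In bulk tumors, fewer cells of a type and less RNA per cell cannot be told apart, so markers of cells rich in ER are given beside these values. Over the 8 plasma cell markers, the summed level was 29.3 to 56.6 FPKM in *MYC*-HCC and 30.8 to 70.3 FPKM in *MYC*/*Twist1*-HCC, highest in replicate 5. There Igkc made up 54.6 FPKM, while Jchain was at 1.88 FPKM and the plasma cell receptor Tnfrsf17 and the factor Irf4 were at 0.12 and 0.03 FPKM. Sdc1 went the other way, with its lowest level of the 10 libraries in replicate 5 (10.84 FPKM). In replicate 2 Sdc1 made up 24.96 FPKM of a sum of 30.8 FPKM. Over the 12 pancreatic acinar markers the sum was 2.64 to 5.26 FPKM in *MYC*-HCC and 4.14 to 12.6 FPKM in *MYC*/*Twist1*-HCC (6.34 FPKM in replicate 5), with Prss1, Prss2, Pnlip and Amy2a5 at 0 in all 10 libraries. Cela1 made up most of this sum in replicate 3 (10.76 FPKM) and in replicate 5 (5.62 FPKM). Its log2 difference was 1.10 (adjusted p = 0.178 in limma), and that of Ctrl was -0.68 (adjusted p = 0.404 in limma). The summed hepatocyte markers were highest in replicate 5 at 12797 FPKM, of which Alb made up 6118.39 FPKM and Apoa1 3596.25 FPKM, while Alb itself was highest in replicate 2. In replicate 5 Serpina3k (1.1 FPKM), Car3 (3.42 FPKM) and Cyp2e1 (2.78 FPKM) were below their *MYC*-HCC medians of 9.94, 19.32 and 23.95 FPKM. The remaining genes of the hepatocyte list were above theirs. Over 5 fetal and tumor hepatocyte genes the sum was 8030.4 to 21294 FPKM in *MYC*-HCC and 18382 to 27175 FPKM in *MYC*/*Twist1*-HCC. H19 carried this sum in replicate 5, at 20933.53 of 27175 FPKM, whereas Afp, Gpc3 and Dlk1 were highest in replicate 2 and Igf2 in library 4, and Dlk1 in replicate 5 was the lowest of its group at 16.48 FPKM. The 8 macrophage markers summed to 239 to 885 FPKM in *MYC*-HCC and to 334 to 1082 FPKM in *MYC*/*Twist1*-HCC, again highest in replicate 5. Lyz2, the most abundant of them, had 348.96 FPKM in replicate 5 and was highest in *MYC*-HCC library 3 at 388.18 FPKM. Marco had 0.32 FPKM in replicate 5, below its *MYC*-HCC median of 0.76 FPKM. The remaining genes of this list were highest in replicate 5. The 7 erythroid markers summed to 39.6 to 139 FPKM in *MYC*-HCC and to 173 to 2231 FPKM in *MYC*/*Twist1*-HCC, and the 9 granulocyte markers to 8.48 to 24.0 and to 20.6 to 664 FPKM, where replicate 5 was the lowest of its group in both. The part of these cells in the levels of the response genes was not tested.

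*MYC*-HCC library 4 had the highest FPKM of the 10 for 3 of the 35 genes (Ern1, Derl2 and Creb3l3) and the lowest for 9 (25.7%, beside 23.3% of all genes tested). Its summed hepatocyte markers, 10601 FPKM, were above those of the other 4 libraries of its group (1959.9 to 5085 FPKM), and so were its 5 endothelial markers at 61.2 FPKM (9.05 to 15 FPKM) and its 7 fibroblast and stellate markers at 79.7 FPKM (22.1 to 48.3 FPKM). Car3 made up 2444.4 FPKM of the hepatocyte sum (4.46 to 30.31 FPKM in the others). Afp, Gpc3 and Dlk1, at 3.11, 0.28 and 0.01 FPKM, were the lowest of the 10 in library 4. The other *MYC*-HCC libraries had 735.79 to 1478.68 FPKM of Afp and 31.33 to 49.28 FPKM of Dlk1. H19 and Igf2, at 17420.45 and 3870.43 FPKM in library 4, were the highest of the *MYC*-HCC group. Its 4 bile duct markers summed to 1.11 FPKM (15.2 to 37.3 FPKM in the others). Within its own group it was the highest library for 11 of the 35 genes (Chac1, Ppp1r15b, Ern1, Dnajb9, Edem1, Derl1, Derl2, Atf6, Creb3l3, Sel1l and Syvn1) and the lowest for 13 (Eif2ak3, Dnajc3, Derl3, Tram2, Sec61b, Hsp90b1, Sdf2l1, Pdia4, Pdia6, Canx, Manf, Creld2 and Hyou1). The part of these markers in the values of library 4 was not tested.

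A wider list of 134 genes of the pathway was taken from general knowledge of the response, with earlier results of these data known. It was compared in the same way, and 120 of these genes were tested. With all 10 libraries limma called 0 of the 120 in either direction. With the unadjusted p under 0.05, 24 (20%) were higher in *MYC*/*Twist1*-HCC and 3 (2.50%) lower, beside the 7.83% and 8.51% of all genes tested, and at 10 (8.33%) the *MYC*/*Twist1*-HCC values all exceeded the *MYC*-HCC values, beside 2.35%. Without library 4 limma called 8 higher (6.67%, beside 4.33% of all genes tested) and 3 lower (2.50%, beside 4.72%), and the median log2 difference over all 10 libraries was 0.18.

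Genes of folding and degradation in the ER made up most of the 24. Of 25 genes of folding, disulfide formation and glycan trimming, 10 (40%) had an unadjusted p under 0.05 on the higher side and 0 on the lower side, with a median log2 difference of 0.29. Prdx4, the peroxiredoxin of the ER, had 28.7, 20.1, 27.8, 26.5 and 28.8 FPKM under MYC alone and 60.6, 41.4, 55.9, 34.9 and 48.8 FPKM under MYC with Twist1 with no overlap (log2 difference 0.86, SE 0.18, adjusted p = 0.0912 in limma, and 0.0321 without library 4). Erp44, which holds back unfinished disulfide-bonded proteins, had no overlap either, with a log2 difference of 0.55, and Pdia5, another isomerase, had one of 0.51. Of 19 genes of ER-associated degradation, 6 (31.6%) were higher and 0 lower in the same sense, with a median of 0.17. Herpud1, a scaffold of the HRD1 ligase, measured 28.2, 21.2, 31.5, 73.1 and 33.8 FPKM across *MYC*-HCC libraries and 63.3, 64.0, 79.7, 45.0 and 82.6 FPKM across *MYC*/*Twist1*-HCC libraries, and the groups overlapped at library 4 alone. It rose without library 4, with an adjusted p of 0.0210 in limma, beside 0.201 with it. So did the lectin gene Erlec1 (0.0259 beside 0.178). Gm15889, which lies upstream of Herpud1 on the same strand (chr8:94377872-94380317), had a log2 difference of 4.05 with no overlap (adjusted p = 0.000420 in limma). Whether the levels of these neighbors are linked was not tested. Selenos had a log2 difference of 0.57 with no overlap between the groups.

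Of 25 genes of translocation, signal cleavage and oligosaccharide transfer, 4 (16%) were higher and 0 lower at that limit, with a median of 0.22. Spcs3 and Spcs1, subunits of the signal peptidase, and Ostc, a subunit of the oligosaccharyltransferase, had no overlap between the groups, with log2 differences of 0.70, 0.47 and 0.44. Of 17 genes of sensor processing, the eIF2 kinases and eIF2B, 2 were higher and 2 lower at that limit (11.8% each way, beside 7.83% and 8.51% of all genes tested), with a median of -0.14. Wfs1, an ER membrane protein, had a log2 difference of 0.72 with no overlap, and an adjusted p of 0.0466 in limma without library 4, while Eif2s1, which encodes the eIF2α that PERK phosphorylates, had 31.2, 30.8, 33.6, 23.3 and 33.3 FPKM under MYC alone and 18.7, 24.3, 26.5, 23.9 and 15.1 FPKM under MYC with Twist1 (log2 difference -0.50, adjusted p = 0.231 in limma). Eif2b3, a subunit of the exchange factor that phosphorylated eIF2 blocks, had a log2 difference of -0.64 with all libraries (adjusted p = 0.259 in limma) and fell without library 4, with a log2 difference of -0.82 and an adjusted p of 0.0449.

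Of 24 targets and partners of ATF4 and CHOP tested outside the 35 genes, 1 was higher (Psat1) and 1 lower (Gars) at that limit, which is 4.17% each way beside 7.83% and 8.51% of all genes tested, with a median of 0.03. Psat1, an enzyme of serine synthesis, measured 157, 137, 146, 35.9 and 128 FPKM across *MYC*-HCC libraries and 194, 250.03, 213, 213 and 190.2 FPKM across *MYC*/*Twist1*-HCC libraries, where library 4 was far below the rest, and Psat1 rose without library 4 (log2 difference 0.58, adjusted p = 0.0367 in limma). The glycyl-tRNA synthetase Gars had a log2 difference of -0.46 and the tryptophanyl-tRNA synthetase Wars one of -0.38. Of the other CREB factors of the ER membrane, Creb3l2 had 7.26, 5.9, 4.2, 3.73 and 5.28 FPKM under MYC alone and 9.83, 11.5, 7.08, 7.1 and 22.4 FPKM under MYC with Twist1, once more with replicate 5 as the highest, and its log2 difference was 1.02 (SE 0.31, adjusted p = 0.183 in limma). Creb3l1 had a log2 difference of 0.26 (95% interval -0.47 to 0.98), and Creb3 an interval of -0.45 to 0.44.

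**Figure D5:**
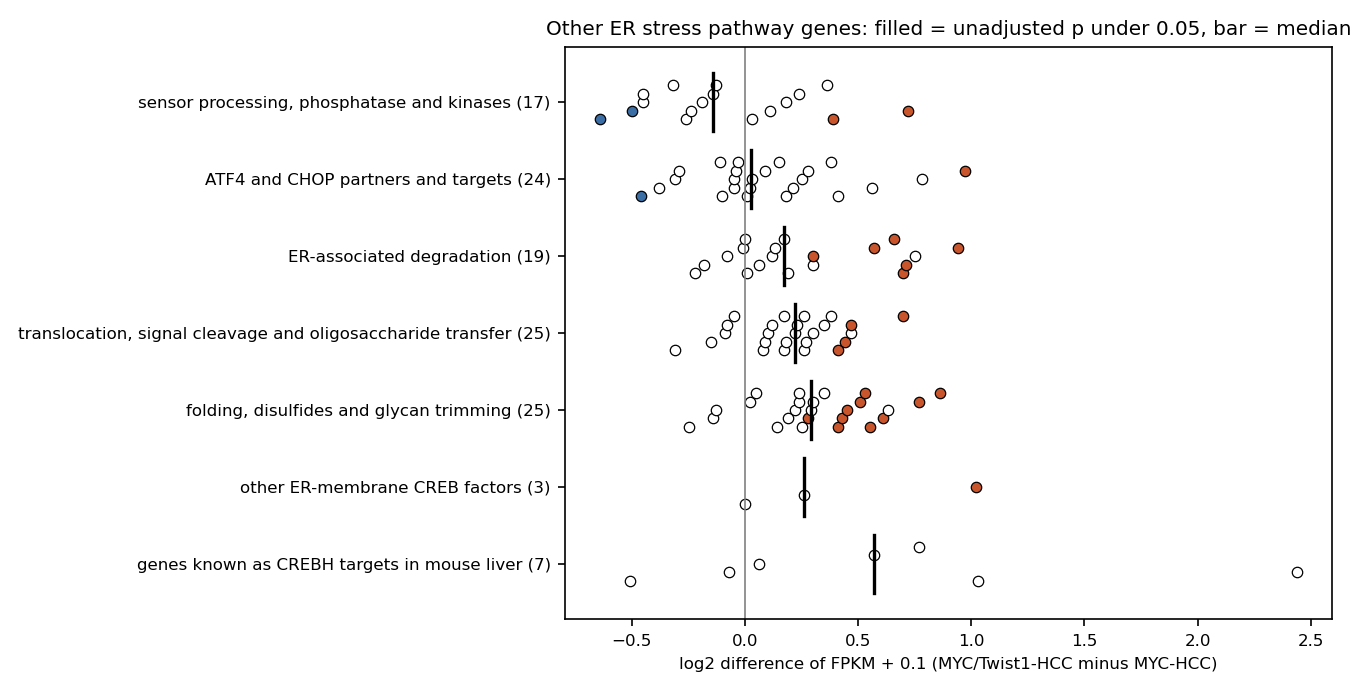
Log2 difference of FPKM + 0.1 (*MYC*/*Twist1*-HCC minus *MYC*-HCC) of the 120 other pathway genes tested, by sublist with the number of genes in parentheses; each point is a gene, filled points have an unadjusted p under 0.05 and the bar is the median of the sublist. The medians lie between -0.14 (sensor processing and kinases) and 0.57 (known CREBH targets), and the filled points to the right of 0 are most numerous for folding (10 of 25).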

How the data were processed

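Total RNA of flash-frozen tumors was made into libraries and sequenced as single-end reads. Per the submitters' processing notes, Trimmomatic, STAR, Picard, featureCounts and DESeq2 were used with mm10, while the paper names RSEM for the expression values. Versions are not given in the sources used here. The values are the FPKM that the authors deposited, per gene, for 52459 genes. All 10 columns of values were used and 0 were left unused.

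The FPKM were tested as log2(FPKM + 0.1) in a linear model (limma 3.58.1, R 4.3.3, variances moderated with a trend, two-sided) over 12146 genes, those that reached 0.5 FPKM in 5 or more libraries, with Benjamini-Hochberg adjustment over all of them and a threshold of 0.05. Folds are on that scale, which understates changes of low genes. Intervals are 95% intervals of the fit. The script was tested on simulated data. Python 3.11.15 prepared the table, the counts and the figures. Gene positions are those of GENCODE vM21 (GRCm38, the assembly of mm10), and promoters those of RefSeq (GRCm38.p6).

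Depth was estimated from gene models under 150 bp, whose values came to whole reads within 0.1 read for 99.5% to 100.0% of them. The 35 genes, the pathway list and the marker lists were chosen with earlier results of these data known. Named are all 35 genes, up to 3 genes per pathway sublist with the smallest p, Twist1, Gm15889 as the neighbor of Herpud1, and markers beside the results they touch. The alternatives were an added 1 or 0.01, all genes without a filter, genes averaging 1 FPKM or more, quantile normalization, median-ratio scaling, no variance trend, library quality weights and each library left out in turn. Leaving out *MYC*-HCC library 4 together with *MYC*/*Twist1*-HCC replicate 5 was added after seeing the data.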

Additional observations from a re-analysis of the deposited data

Results flagged for a closer look

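In each group of 5 libraries, the highest and the lowest value of each of the 35 genes was set against Dixon's critical value of 0.710 for its gap to the nearest library as a share of the range. Of the 70 groups examined, 11 exceeded it (15.7%). Chance gives about 1 in 20, but over all genes tested 12.6% of groups exceeded it in the same libraries. In *MYC*/*Twist1*-HCC replicate 5 was the high library for Eif2ak3 at 11.94 FPKM, Arfgap3 at 25.41 FPKM, Xbp1 at 114.8 FPKM, Dnajb9 at 39.7 FPKM, Atf6 at 13.9 FPKM, Hspa5 at 373.47 FPKM and Pdia6 at 112.38 FPKM, 7 of the 35 genes (20%), beside 2.54% of all genes tested. These genes take in the PERK sensor, the RNA cut by IRE1, the ATF6 sensor and BiP, so each of the 3 arms is represented.

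In *MYC*-HCC library 4 was the high library for Edem1 at 14.67 FPKM and Creb3l3 at 66.26 FPKM and the low library for Hyou1 at 17.89 FPKM, where 10.2% of all genes tested exceeded the value on the high side and 2.86% on the low side. Asns at 101.13 FPKM in library 1 exceeded the value because the other 4 *MYC*-HCC libraries lay between 90.58 and 93.63 FPKM.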

How the results depend on the processing

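Over 19 alternatives, 22 of the 35 response genes kept a positive and 3 (Sdf2l1, Canx and Creld2) a negative log2 difference, 9 reversed in at least 1 alternative, and Derl2 was at 0.00 to begin with. The count of these genes called higher by limma went from 0 to 1 (Tram2) with median-ratio scaling, to 8 with library quality weights (Eif2ak3, Ppp1r15a, Dnajb9, Edem1, Tram2, Atf6, Creb3l3 and Sel1l) and to 1 without *MYC*-HCC library 4 and *MYC*/*Twist1*-HCC replicate 5, and ranged from 0 to 3 with 1 library left out, 3 being without library 4. The counts without overlap ranged from 3 to 6 higher and 0 to 1 lower with 1 library left out, and were 7 and 2 without both. Over all genes tested they were 285 and 203 with all libraries, 734 and 1171 without library 4, and 810 and 1282 without both. For the other pathway genes, 15 were called higher and 8 lower with quality weights, 3 higher without both, and 0 to 8 higher and 0 to 3 lower with 1 library left out. Over all genes tested, 3 were called higher and 0 lower. The counts higher were 5 with 1 added, 1 with 0.01 added, 21 with median-ratio scaling, 1008 with quality weights and 221 without both, and 1 to 526 with 1 library left out. The counts lower were 1469, 209 and 0 to 573 for the last 3 of these.

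Reversed values were 0.02 for Hsp90b1 and 0.03 for Dnajb11 with median-ratio scaling, 0.01 for Hsp90b1, 0.08 for Dnajb11, 0.03 for Pdia3 and 0.05 for Hyou1 with quantile normalization, and -0.21 for Derl3 and -0.03 for Manf without both libraries. With 1 library left out the log2 difference ranged from -0.18 to 0.09 for Asns, -0.06 to 0.06 for Dnajb11, -0.09 to 0.21 for Ern1, -0.13 to 0.05 for Hsp90b1, -0.22 to 0.04 for Hyou1, -0.11 to 0.02 for Pdia3 and -0.39 to 0.24 for Sec61b, and reached 0.85 for Derl3 and 0.33 for Manf. Without both libraries the estimates were -0.51 for Sec61b, -0.15 for Hsp90b1, -0.16 for Pdia3 and -0.31 for Hyou1. The cause of these changes was not tested. No paired analysis was possible because the *MYC*-HCC columns carry no replicate numbers, so the replicate block was not run. Without counts, the precision of single libraries is known only through the estimated depth.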

Other observations

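Genes known from mouse liver as targets of CREBH, the factor encoded by Creb3l3, were the most uneven of the pathway sublists. Of 7 tested, 0 had an unadjusted p under 0.05 in limma, and their median log2 difference was 0.57, with a range of -0.51 to 2.44. Apoa4, an apolipoprotein, had 3.92, 0.85, 1.93, 57.3 and 10.7 FPKM under MYC alone and 9.02, 247, 32.7, 23.6 and 12.9 FPKM under MYC with Twist1. The serum amyloid P gene Apcs measured 27.1, 8.91, 16.9, 150.2 and 27.3 FPKM across *MYC*-HCC libraries and 53.4, 33.3, 88.8, 33.3 and 115 FPKM across *MYC*/*Twist1*-HCC libraries, and Pck1, a key enzyme of gluconeogenesis, was at 3.32, 0.39, 0.65, 14.0 and 9.47 FPKM and 12.0, 2.88, 5.26, 3.69 and 3.19 FPKM. Library 4, which had the highest Creb3l3 level of the 10, was the highest *MYC*-HCC library for all 3 of these genes. It was also the highest of the 10 for the hepatocyte markers Ttr, Serpina3k, Car3, Cyp2e1 and Cps1, and not for the rest of that list. In *MYC*/*Twist1*-HCC, Creb3l3 was highest in replicate 1 and lowest in replicate 5. In the same group Pck1 was highest in replicate 1, Apoa4 in replicate 2 and Apcs in replicate 5. Whether Creb3l3 and these genes are linked was not tested. Without library 4, Apcs had an adjusted p of 0.0482 in limma and Apoa4 one of 0.0540.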
